A study of Mus musculus with 6 samples.

Results

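The S100 genes encode small calcium-binding proteins, and 10 of them, S100a1, S100a3, S100a4, S100a6, S100a8, S100a9, S100a10, S100a11, S100a13 and S100b, were followed here in mouse cells of hypothalamic origin. Members were chosen by name: all probe sets that the platform annotation gives for one of these genes alone were taken, which left 12 probe sets of 9 genes among 12393 genes measured. S100a11 was not analysed here, because its probe set is named for several genes. A_212 is an immortalised line from adult hypothalamus and N_46 one from embryonic hypothalamus, and RNA of 3 plates of each was hybridised to 1 array per plate. Both lines are labelled as expressing neuropeptide Y (Npy), both carry the SV40 T-antigen used to immortalise them, which blocks the tumour suppressors p53 and Rb, and both were grown to 70% confluence in DMEM with 5% serum. There is 1 line per age, so adult against embryonic origin and other differences between A_212 and N_46 cannot be told apart. The p-values measure the spread between plates, which may be technical.

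S100 proteins carry a pair of EF-hands, the helix-loop-helix motif that holds a calcium ion, and most work as dimers that bind a target protein when calcium rises. They are not enzymes. Inside cells they act on annexins, myosin, calcium channels and other targets, and some are released and bind receptors such as RAGE (encoded by Ager) and Tlr4. In the brain S100b is best known from astrocytes and S100a1 from neurons, whereas S100a8 and S100a9 are abundant in neutrophils and S100a4 in fibroblasts.

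Each value below is on a log2 scale and was centred by the authors, so that the median of a probe set over the 6 arrays is 0. Such values show how arrays differ and hold no level, and so neither the presence of a transcript nor the rank of one S100 gene against another can be read from them, and the presence of defining markers of neurons could not be checked either. The log base was taken as 2, which is what the named method gives, and each fold rests on it. Differences are A_212 minus N_46 with a standard error (SE) taken from limma, which was fitted over all genes, and a gene was called at a Benjamini-Hochberg adjusted p under 0.05. The median SD between plates over all genes was 0.10 in A_212 and 0.08 in N_46. Correlations between arrays of one line, taken across genes (no independent replicates), had r between 0.80 and 0.86 in A_212 and between 0.82 and 0.92 in N_46. Since the values are centred over both lines, each r includes the difference between the lines and does not measure the likeness of plates alone. The number of arrays limits the precision.

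Of the 9 listed S100 genes measured, RefSeq places S100b on chromosome 10 and the others on chromosome 3. The promoter windows of S100a1 and S100a13 are shown because both genes were higher in A_212 and their annotated starts lie back to back. S100a1 is read from the minus strand and S100a13 from the plus strand, the starts are 105 bases apart, and the windows, each from 250 bases before to 50 after the start, share 204 bases. In the lines below (RefSeq, build GRCm38.p6, each 5′ to 3′ on its own strand) capitals mark the 104 bases between the starts, which are reverse complements of each other and of which 58.7% are G or C. The S100a1 window is chr3:90514281-90514580 on the minus strand and the S100a13 window chr3:90514185-90514484 on the plus strand.
S100a1: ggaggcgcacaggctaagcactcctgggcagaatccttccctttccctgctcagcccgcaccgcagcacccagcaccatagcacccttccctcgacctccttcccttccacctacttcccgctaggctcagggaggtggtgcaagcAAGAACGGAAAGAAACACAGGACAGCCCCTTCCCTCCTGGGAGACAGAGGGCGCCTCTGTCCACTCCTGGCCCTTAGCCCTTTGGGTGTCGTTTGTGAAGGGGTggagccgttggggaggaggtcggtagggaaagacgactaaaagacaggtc
S100a13: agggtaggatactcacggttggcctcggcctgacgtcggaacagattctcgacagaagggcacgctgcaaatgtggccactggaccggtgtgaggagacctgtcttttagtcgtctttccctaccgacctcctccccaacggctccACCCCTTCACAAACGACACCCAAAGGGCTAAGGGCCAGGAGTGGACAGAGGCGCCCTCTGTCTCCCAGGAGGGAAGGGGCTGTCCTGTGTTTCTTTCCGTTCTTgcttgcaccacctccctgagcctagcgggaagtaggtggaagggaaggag

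The windows of S100a4, which did not pass the test, and of S100a8, which did, are shown for contrast because both hold a TATA box (TATAAA, searched on both strands and marked in capitals), and neither the S100a1 nor the S100a13 window has these letters. It begins 31 bases before the start of S100a4 (chr3:90603520-90603819, plus strand) and 30 bases before that of S100a8 (chr3:90668821-90669120, plus strand).
S100a4: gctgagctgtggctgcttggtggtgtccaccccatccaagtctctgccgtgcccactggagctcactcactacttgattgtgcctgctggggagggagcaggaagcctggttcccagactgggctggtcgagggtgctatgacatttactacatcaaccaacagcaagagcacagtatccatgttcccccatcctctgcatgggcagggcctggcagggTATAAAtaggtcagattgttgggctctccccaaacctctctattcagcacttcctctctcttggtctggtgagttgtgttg
S100a8: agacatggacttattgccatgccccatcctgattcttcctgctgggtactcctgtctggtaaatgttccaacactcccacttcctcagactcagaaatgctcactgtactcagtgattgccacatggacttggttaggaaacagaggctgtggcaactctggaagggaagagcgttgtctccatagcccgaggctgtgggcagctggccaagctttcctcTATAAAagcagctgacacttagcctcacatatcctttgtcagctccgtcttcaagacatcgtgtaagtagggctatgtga
Of the listed S100 genes measured, 8 had a window, 11 windows in all, and S100a10 had none in the table. TATAAA was found in 4 of the 11 windows, of S100a3, S100a4, S100a8 and S100a9, against 13.6% of all 32544 different windows in the RefSeq table. The S100a3 match begins 52 bases before the start, in 1 of the windows of that gene, and the S100a9 match begins on the start itself. The GC box GGGCGG was found in 2 windows, of S100a3 and S100a9, against 35.9% of all windows, and the AP-1 motif TGANTCA in 0 windows, against 7.79%, with both strands searched and no overlap between motifs. A match is a run of letters and not a measured site, and called and uncalled genes stood on both sides of the TATA count.

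S100a1, S100a13, S100a6 and S100a8 were higher in A_212 and the 5 other S100 genes did not pass the test. The 4 calls are 44.4% of the 9 genes, beside 39.2% of all 12393 genes called in either direction, so the share called was near the background. All 4 were higher in A_212, where 18.3% of all genes were called, and 0 were lower, where 20.9% of all genes were. S100a1 was the 1 gene called with a difference of at least 2-fold, as were 5.83% of all genes in either direction and 3.61% higher in A_212. The arrays of the lines did not overlap for 55.6% of the 9 genes, beside 51.1% of all genes, with A_212 above for 4 genes (22.2% of all genes) and below for 1, S100a4. Fewer cells with a transcript and less of it per cell cannot be told apart in RNA of whole plates. The median difference over the 9 genes was -0.01, beside -0.06 over all genes. In limma's fit 5 of the 12 probe sets were called, beside 35.9% of all 22690 probe sets called in either direction. All 5 were higher in A_212, where 17.0% of the 22690 were called.

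**Figure D1:**
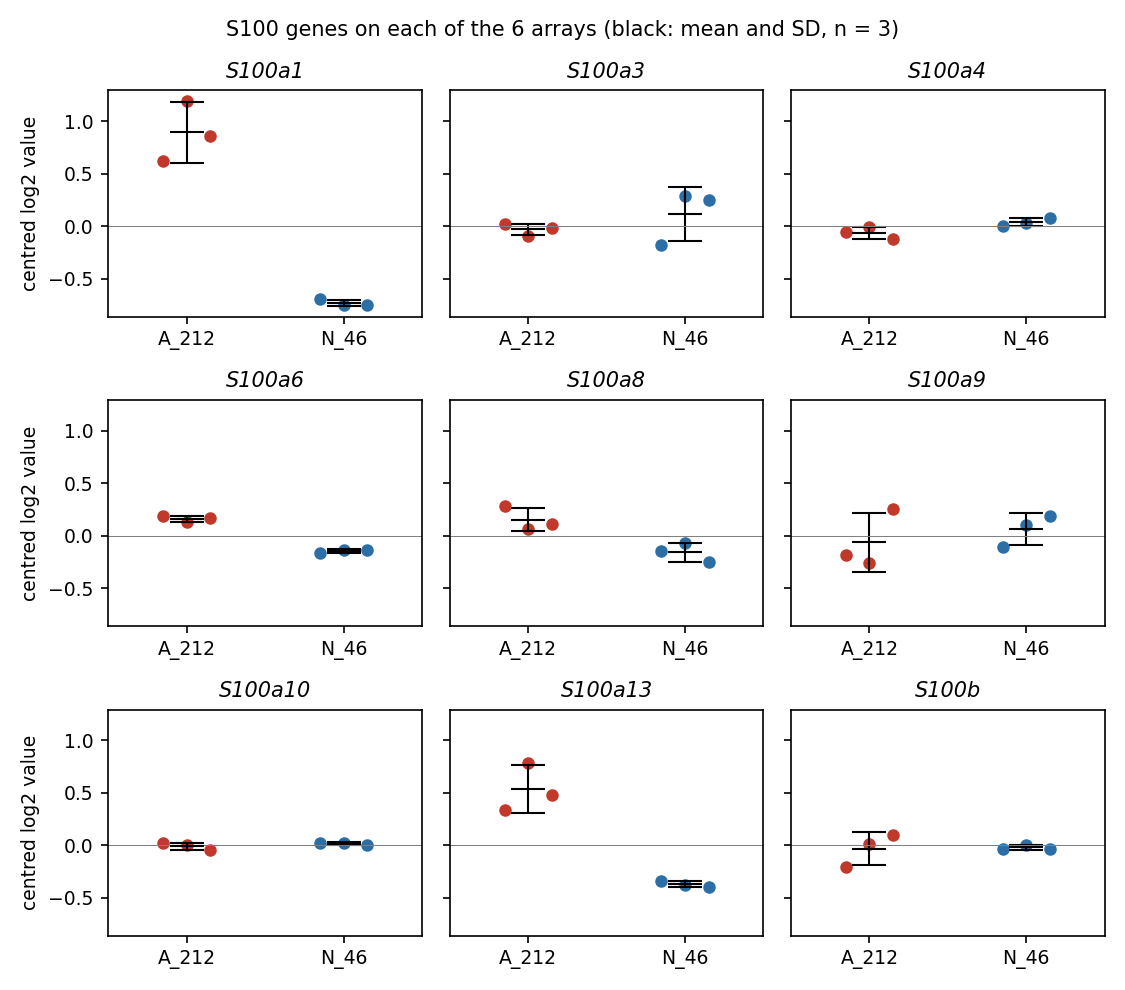
Centred log2 value (vertical axis) of each S100 gene on the 6 arrays, 3 of A_212 (left, red) and 3 of N_46 (right, blue), with the mean and SD in black. The lines stand furthest apart for S100a1, from 0.62 to 1.20 in A_212 and from -0.75 to -0.69 in N_46, and next for S100a13, while the arrays of S100a3, S100a9, S100a10 and S100b mix.

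S100a1, which in heart muscle and neurons regulates calcium release and uptake, had the largest difference of the 9. Its mean value over 2 probe sets was 0.62, 1.20 and 0.86 on the A_212 arrays and -0.69, -0.75 and -0.74 on the N_46 arrays. All A_212 arrays lay above all N_46 arrays, with the wider spread in A_212. The difference was 1.62 ± 0.12 (SE, n = 3 per line), a 3.08-fold difference with a 95% interval from 1.35 to 1.90 on the log2 scale (limma adjusted p = 2.6e-06). Its first probe set gave 0.48, 0.98 and 0.61 in A_212 against -0.53, -0.48 and -0.73 in N_46, a difference of 1.27 ± 0.13. The second, whose name carries the suffix for probes shared among transcripts, gave 0.76, 1.42 and 1.12 in A_212 against -0.86, -1.02 and -0.76 in N_46, a difference of 1.98 ± 0.15. Both probe sets thus separated the lines, at differences of unlike size.

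S100a13, which takes part in the release of the growth factor Fgf1 by a route that bypasses the classical secretory pathway, followed. Its values were 0.34, 0.78 and 0.48 in A_212 and -0.34, -0.38 and -0.39 in N_46. The difference was 0.90 ± 0.11 (SE, n = 3 per line), or 1.87-fold, with a 95% interval from 0.67 to 1.14 (limma adjusted p = 6.4e-05). Within A_212, replicate 2 was the highest and replicate 1 the lowest array for S100a13, and the same held for both probe sets of S100a1. That order was not particular to these genes. The collagen gene Col3a1 (1.60, 2.07 and 1.94) and the astrocyte marker Aldoc (0.19, 0.79 and 0.44) had it too on the A_212 arrays.

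S100a6, or calcyclin, a gene of proliferating cells, was called at a smaller difference. It had values of 0.19, 0.13 and 0.17 in A_212 and -0.16, -0.13 and -0.13 in N_46. The arrays of each line lay close together, with an SD of 0.029 in A_212 and 0.019 in N_46, and the difference was 0.31 ± 0.07 (SE, n = 3 per line), or 1.24-fold (95% interval 0.16 to 0.45, limma adjusted p = 0.0040). Its only probe set is named as one whose probes are shared among transcripts of the gene.

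S100a8 and S100a9 encode the subunits of calprotectin, the heterodimer of neutrophils that binds calcium and withholds metals from microbes. S100a8 had values of 0.28, 0.07 and 0.12 in A_212 and -0.15, -0.07 and -0.25 in N_46, which did not overlap, and a difference of 0.31 ± 0.08 (SE, n = 3 per line, 95% interval 0.13 to 0.50, limma adjusted p = 0.013). This call rested on 2 arrays: the adjusted p was 0.051 without A_212 replicate 1 and 0.066 without N_46 replicate 3. The only S100a8 probe set has a name with the suffix for probes shared among transcripts. S100a9 had values of -0.18, -0.26 and 0.26 in A_212 and -0.11, 0.11 and 0.19 in N_46. The S100a9 arrays overlapped, with A_212 replicate 3 the highest of the 6, and the difference of -0.13 ± 0.13 did not pass (95% interval -0.42 to 0.17, limma adjusted p = 0.49). Without A_212 replicate 3 the difference of S100a9 was -0.28, with an adjusted p of 0.050 that fell just under the threshold before rounding. Whether the 2 subunit genes differ in response was not tested. Of 19 neutrophil and macrophage markers measured, 1 was higher in A_212 (Cd14, 0.57), 2 were lower (Cd68, -0.28, and Fcgr3, -0.24) and 16 did not pass. The share called was 15.8%, beside 39.2% of all genes. The list's mean value per array lay between -0.11 and 0.04 in A_212 and between 0.01 and 0.05 in N_46. The count of lower markers in that list was 1 without A_212 replicate 1 or N_46 replicate 3, 4 without A_212 replicate 3 or with the replicate block, and 5 with array weights.

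S100a4 is called fibroblast-specific protein in older work and binds non-muscle myosin. It had values of -0.055, -0.0049 and -0.12 in A_212 and 0.0049, 0.034 and 0.081 in N_46. The lines did not overlap, but they nearly touched and the difference of -0.10 ± 0.07 did not pass (SE, n = 3 per line, 95% interval -0.25 to 0.06, limma adjusted p = 0.29). The whole interval lies below that of S100a1. On the same arrays 11 of 18 fibroblast markers measured were higher in A_212, 2 were lower (Col1a1, -0.55, and Twist2, -0.39) and 5 did not pass. The share called was 72.2%, beside 39.2% of all genes, with a median difference of 0.45. That list's mean value per array lay between 0.46 and 0.63 in A_212 and between -0.62 and -0.45 in N_46, led by periostin (Postn, 5.14) and Col3a1 (3.59), and its part in the differences of S100a1, S100a13, S100a6 and S100a8 was not tested.

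S100b, the classical astrocyte and Schwann cell member, had values of -0.21, 0.01 and 0.10 in A_212 and -0.03, 0.00 and -0.03 in N_46. The A_212 arrays spread on both sides of the N_46 arrays, and the difference was -0.01 ± 0.09 (SE, n = 3 per line, 95% interval -0.21 to 0.18, limma adjusted p = 0.92). Its 2 probe sets differed by -0.03 ± 0.10 and 0.01 ± 0.09. Astrocyte markers went both ways, with 6 of 15 higher in A_212, among them Apoe (1.17) and Clu (1.02). The 2 lower in A_212 were the glutamate transporter gene Slc1a3 (-2.47) and Gja1 (-1.30). The share called was 53.3%, beside 39.2% of all genes. The list's mean value per array lay between -0.08 and 0.09 in A_212 and between -0.02 and 0.02 in N_46. With plain probe sets alone 3 astrocyte markers were higher in A_212. Of 13 Schwann cell and oligodendrocyte markers 3 were higher in A_212 and 1, Egr2 (-0.53), was lower (2 with array weights). The share called was 30.8%, beside 39.2% of all genes. Pdgfra, which mesenchymal cells also carry, was 8.01-fold higher in A_212.

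S100a10 does not need calcium to bind its partner annexin A2, with which it forms a complex at the cell surface. Its values over 2 probe sets were 0.02, 0.00 and -0.05 in A_212 and 0.03, 0.02 and 0.01 in N_46. The arrays overlapped and the difference was -0.03 ± 0.07 (SE, n = 3 per line, 95% interval -0.17 to 0.12, limma adjusted p = 0.79). S100a3, known from the hair cuticle, had values of 0.02, -0.09 and -0.02 in A_212 and -0.18, 0.29 and 0.25 in N_46. It did not pass on all 6 arrays (-0.15 ± 0.12, adjusted p = 0.34), but N_46 replicate 1 lay far below the other N_46 arrays, and without it S100a3 was called lower in A_212 (-0.30, limma adjusted p = 0.013).

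**Figure D2:**
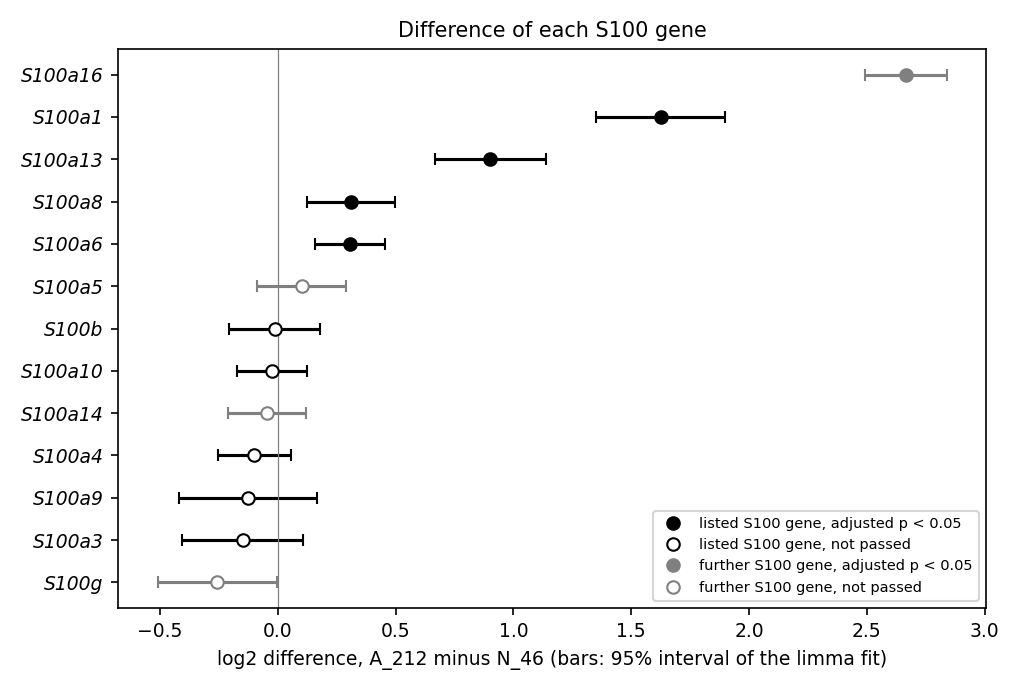
Log2 difference, A_212 minus N_46 (horizontal axis), of the 9 listed S100 genes (black) and 4 further S100 genes (grey), with 95% intervals of the limma fit; filled points have an adjusted p under 0.05. S100a16 (2.67), S100a1 (1.62) and S100a13 (0.90) stand apart from the other genes, whose differences lie between -0.26 and 0.31.

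The array also measured 4 S100 genes outside the list. S100a16, which cells of many tissues express, had values of 1.25, 1.44 and 1.34 in A_212 and -1.25, -1.37 and -1.35 in N_46. The lines lay far apart, and the difference of 2.67 ± 0.08 (SE, n = 3 per line, limma adjusted p = 2.3e-09), a 6.35-fold difference, exceeded that of S100a1. S100a14 (-0.04 ± 0.07), an epithelial gene, S100a5 (0.10 ± 0.09), known from olfactory neurons, and S100g (-0.26 ± 0.11), the vitamin D-dependent calcium buffer of the intestine, did not pass. S100g had a limma adjusted p of 0.10 on all arrays and 0.047 without A_212 replicate 2 (-0.35).

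The S100 genes of chromosome 3 lie at both ends of a run of skin barrier genes. In RefSeq order the first measured genes are S100a1, S100a13, S100a14, S100a16, S100a3, S100a4, S100a5, S100a6, S100a8 and S100a9, then follow 29 measured genes of other kinds, and S100a10 closes the span. The 3 genes with the largest S100 differences, S100a16, S100a1 and S100a13, are among the first 4, and S100a14 between them did not pass. RefSeq lists 86 genes of other kinds in the span, and those without a probe set of their own were not measured. Of the 29 measured, 0 were higher in A_212, 13 were lower and 16 did not pass. The share called was 44.8%, beside 39.2% of all genes, with a median difference of -0.23 beside -0.06 over all genes. The largest was that of Sprr1a, a small proline-rich protein of the cornified envelope, with values of -1.61, -2.37 and -2.67 in A_212 against 1.79, 1.61 and 1.62 in N_46 and a difference of -3.89 ± 0.21 (SE, n = 3 per line, limma adjusted p = 1.9e-07). The late cornified envelope genes Lce1f (-2.23 ± 0.15, with probe sets at -3.39 and -1.07) and Lce1g (-1.18 ± 0.14) followed. Sprr2 and Lce1 genes are near-identical copies that may share signal, so their single values are uncertain. For the same reason the count of 13 and the median of -0.23 may include 1 signal more than once. The 17 keratinocyte markers, listed from anywhere in the genome, include Lor, Ivl and Flg of this span. Flg (-0.31) is counted as lower in both lists. Of the 17 markers 1 was higher in A_212, 3 were lower and 13 did not pass the test. Their share called was 23.5%, beside 39.2% of all genes, with mean values per array between -0.14 and -0.04 in A_212 and between 0.07 and 0.11 in N_46. The keratinocyte count was 2 higher without A_212 replicate 3, with array weights, with a common array median or with a common 75th percentile, and 5 lower with trended robust eBayes.

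**Figure D3:**
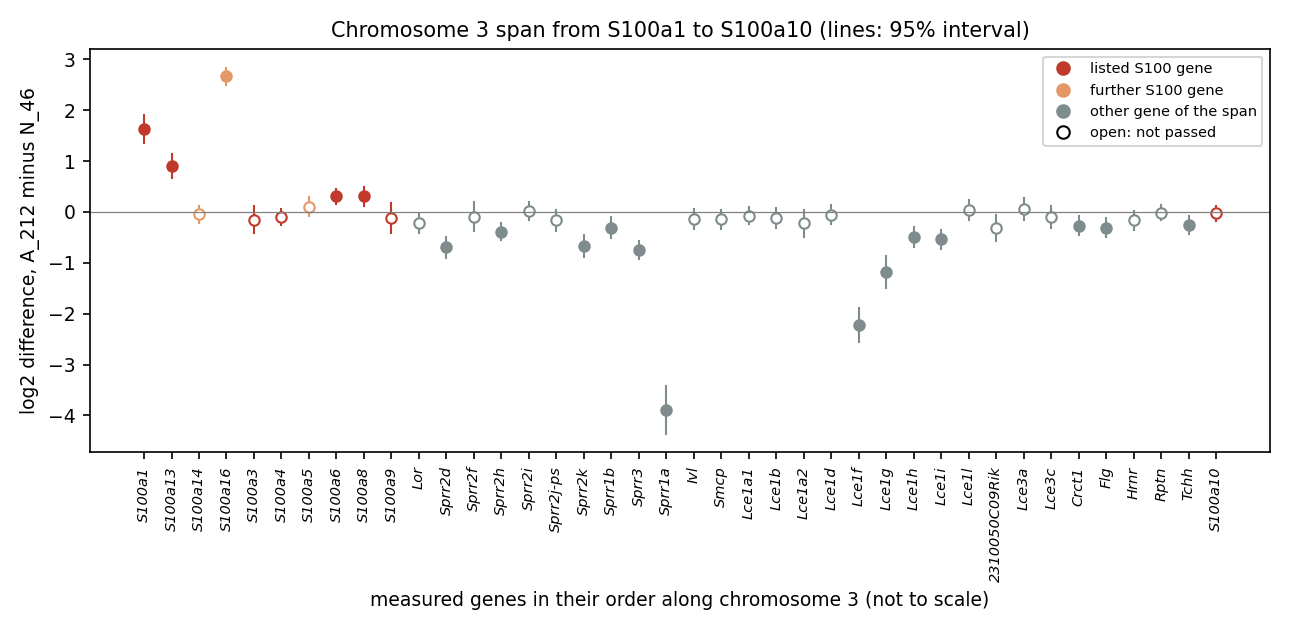
Log2 difference, A_212 minus N_46 (vertical axis, with 95% intervals), of the measured genes between S100a1 and S100a10 in their order along chromosome 3, not to scale; filled points have an adjusted p under 0.05. The called S100 genes lie above 0, up to 2.67 for S100a16, and the called genes of other kinds below 0, down to -3.89 for Sprr1a.

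Genes of S100 targets and receptors went both ways. Of 29 measured, 5 were higher in A_212, 4 were lower and 20 did not pass, a share of 31.0% called beside 39.2% of all genes, with a median difference of -0.03. Without A_212 replicate 2 the count of lower genes was 2. The annexins, calcium-dependent membrane-binding proteins that pair with several S100 proteins, had 2 of 11 higher in A_212 and 3 lower. Their share called was 45.5%, beside 39.2% of all genes. The 2 higher annexins, Anxa1 and Anxa6, are also counted among the 5 higher genes of targets and receptors. Annexin A2 (Anxa2), the partner of S100a10, differed by 0.01 ± 0.07 (95% interval -0.13 to 0.16, limma adjusted p = 0.91), and its partner gene S100a10 did not pass either, as given above. The 3 probe sets of Anxa2 went both ways (0.14, -0.15 and 0.04), and none of them passed. Annexin A1 (Anxa1), which pairs with the S100a11 protein, had values of 0.42, 0.26 and 0.31 in A_212 and -0.26, -0.32 and -0.39 in N_46, a difference of 0.65 ± 0.08 (SE, n = 3 per line, limma adjusted p = 6.0e-05). Anxa6 was the highest of the list (1.20 ± 0.08), with probe sets at 1.56, 1.78 and 0.25. Anxa9 (-1.95 ± 0.11), Anxa8 (-1.12 ± 0.16) and Anxa3 (-0.64 ± 0.07) were lower in A_212.

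Among receptors for released S100 proteins, Tlr4 had values of 0.21, 0.33 and 0.19 in A_212 and -0.23, -0.25 and -0.23 in N_46, with no overlap. Its difference was 0.48 ± 0.07 (SE, n = 3 per line, limma adjusted p = 0.00032), and its 2 probe sets gave 0.58 and 0.39. Ager, which encodes RAGE, did not pass (-0.14 ± 0.09, adjusted p = 0.23), and basigin (Bsg), a surface glycoprotein that binds S100a9, was lower in A_212 (-0.38 ± 0.08, adjusted p = 0.0045). Inside the cell, Cacybp, the calcyclin-binding protein that S100a6 binds, had values of -0.10, -0.22 and -0.26 in A_212 and 0.10, 0.21 and 0.18 in N_46, and was lower in A_212 by the test (-0.36 ± 0.08, adjusted p = 0.0034), where S100a6 was higher. Fgf1, which is released with S100a13, differed by -0.00 ± 0.09 (95% interval -0.20 to 0.19, adjusted p = 0.98). The ryanodine receptor gene Ryr1, a calcium release channel that S100a1 binds, was called at -0.36 ± 0.10 (adjusted p = 0.017), a call that ended without A_212 replicate 1 (0.053), without A_212 replicate 2 (0.066) and with trended robust eBayes (0.12). The other calls of the list, named after their values were seen, were the plasminogen activator gene Plat (0.38) and the non-muscle myosin gene Myh9 (0.33), higher in A_212, and Myh14 (-0.26), lower in A_212. The Myh14 call was lost without any one array other than A_212 replicate 3 (adjusted p between 0.062 and 0.13), with arrays set to the same median (0.055), with trended robust eBayes (0.056) and in the fit of its probe set by itself (0.050, just over the threshold before rounding).

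**Figure D4:**
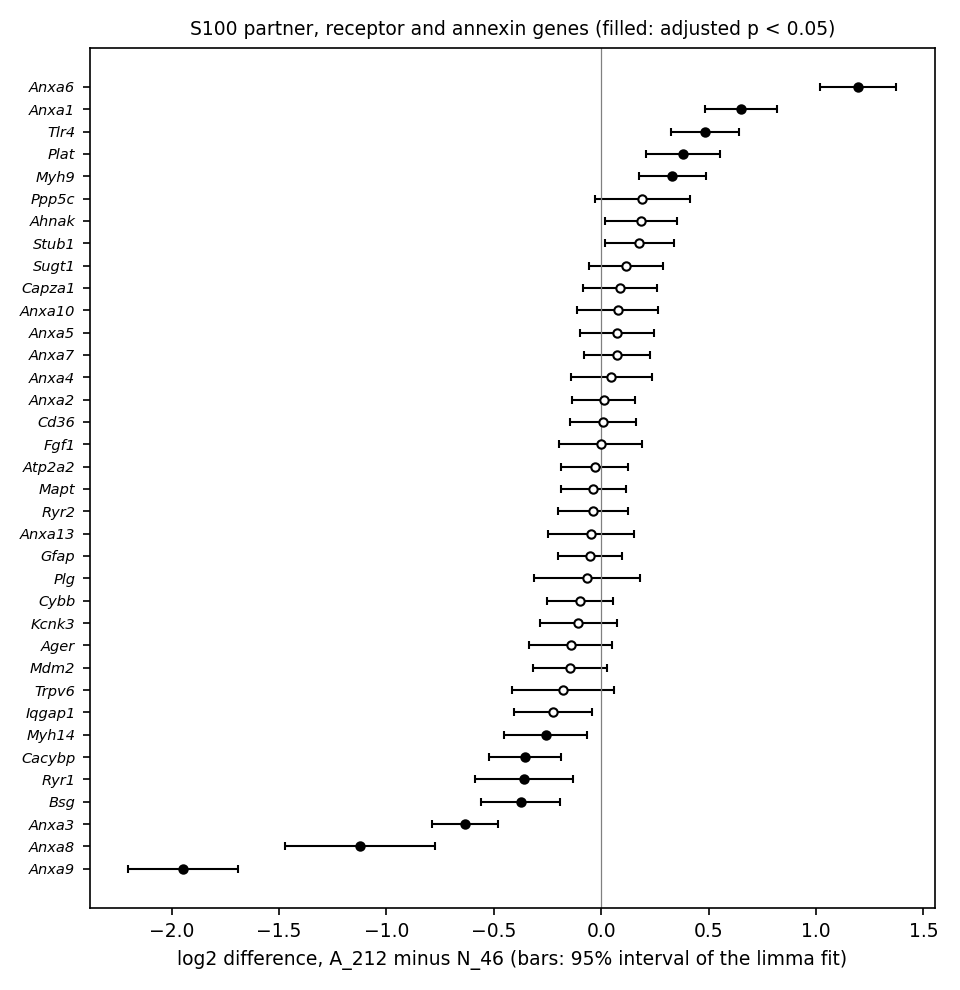
Log2 difference, A_212 minus N_46 (horizontal axis), of genes for S100 targets, receptors and annexins, ordered by size, with 95% intervals of the limma fit; filled points have an adjusted p under 0.05. Anxa6 (1.20) is at the top and Anxa9 (-1.95) at the bottom, and the intervals of Anxa2 and Fgf1 include 0.

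The genes whose 6 values lay nearest to those of S100a1 were Eya2, Parp9, Selenom, Manba and Ctsk. Their root mean square distance to S100a1 over the 6 arrays was 0.041 for Eya2, a transcriptional coactivator, 0.067 for Parp9, 0.072 for Selenom, 0.078 for Manba, a lysosomal mannosidase, and 0.108 for the cathepsin gene Ctsk, in log2 units. Each had its highest value on A_212 replicate 2, as S100a1 had. All 5 were higher in A_212, and with 6 arrays the distance includes the difference between the lines.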

How the data were processed

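RNA of 6 plates, 3 of A_212 and 3 of N_46, was measured on an array of 22690 probe sets. Per the submitters' processing notes the authors used RMA (background correction, quantile normalisation, one summary per probe set); the sources used here give no version. The deposited log2 values have a median of 0 over the 6 arrays for 22690 probe sets within 1e-05, a centring by the authors at a step that no source describes, and the log base is not stated. Quantile normalisation makes arrays alike, so a difference in total RNA would not show. The platform annotation named 20380 probe sets for 1 gene, 691 for several, 1555 for none, and 64 were controls. Of the 20380, 20351 were found in RefSeq (GRCm38.p6) by gene ID and 0 symbols changed. A gene was the mean of its probe sets (4956 of 12393 genes had more than 1). Lines were compared with limma (lmFit, eBayes, two-sided, all 6 arrays). Same-numbered plates' deviations correlated with r of -0.03, -0.01 and 0.09, so numbers were not taken to pair plates. Alternatives tried were a common array median, a common 75th percentile, limma's array weights, plate number as a replicate block, leaving out each array, plain probe sets, the median of probe sets, single probe sets, trended robust eBayes and a filter on low variation. Named genes were all members, fixed partners, up to 3 called genes each way per list with no overlap between lines, and the 5 nearest to the member with the largest difference; some of them are given. Members and lists were chosen with earlier results of these data known. The fit was tested on simulated data. R 4.3.3, limma 3.58.1, Python 3.11.15, pandas 2.3.3, numpy 2.4.6 and matplotlib 3.10.9 were used.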

Additional observations from a re-analysis of the deposited data

How the results depend on the processing

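The count of 4 S100 genes higher in A_212 lay between 3 and 4 when each array was left out and was 4 in the other settings, except with plain probe sets alone, where it was 2 of 7 genes, because S100a6 and S100a8 have no plain probe set. The count of S100 genes lower in A_212 was between 0 and 1 when each array was left out and 0 in the other settings. Over all alternatives, single probe sets included, S100a1 differed by 1.27 to 1.98, S100a13 by at least 0.78, S100a6 by 0.29 to 0.34 and S100a8 by 0.25 to 0.35, and only S100a8 among these lost its call, as given in the report. The number of all genes called was 4853, and between 3837 and 5757 under the alternatives. Of all calls 46.7% were higher in A_212, and between 43.2% and 52.0% under the alternatives. With the replicate block, 4 S100 genes were again higher, 4834 genes were called and S100g was called lower (-0.26, adjusted p = 0.030), as it was with array weights (-0.34, adjusted p = 0.022). The plate numbers come from the labels, and A_212 replicate 1 correlated best with N_46 replicate 2 (r = 0.12), not with its own number. The other 29 genes of the chromosome 3 span had between 10 and 15 lower in A_212 in every setting run. One probe set of Myh9 had the opposite sign (-0.06, adjusted p = 0.59), as did one of the neuronal marker Ncam1 (0.13, adjusted p = 0.35). A planned comparison of protein identity was not run, since protein sequences were not used here. The values carry no signal over background, so which genes were too dim to measure is not known.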

Other observations

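Other EF-hand proteins, the calmodulins, calcium buffers and sensors listed apart from the S100 family, went both ways: of 41 measured, 7 were higher in A_212, 7 were lower and 27 did not pass (limma, Benjamini-Hochberg over all genes), a share of 34.1% called beside 39.2% of all genes. The calpain gene Capn1, a calcium-activated protease (1.10), Rcn1, a calcium-binding protein of the endoplasmic reticulum (0.74), and grancalcin (Gca, 0.62) were higher in A_212. Nucleobindin 2 (Nucb2, -0.99), neurocalcin delta (Ncald, -0.84) and the troponin gene Tnnc2 (-0.42) were lower in A_212, and the call of Tnnc2 was lost without A_212 replicate 2 (adjusted p = 0.054) or N_46 replicate 3 (0.053). The count of lower genes moved to 13 without A_212 replicate 3 or with array weights and to 3 without N_46 replicate 3. Of 16 neuron markers 3 were higher in A_212, led by Stmn2 (3.09), and 10 did not pass. The 3 lower in A_212 were Ncam1 (-0.39), Map2 (-0.25) and Gap43 (-0.24), and 1 was lower without N_46 replicate 2. The share called was 37.5%, beside 39.2% of all genes. Mean values per array lay between 0.11 and 0.12 in A_212 and between -0.17 and -0.12 in N_46.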
